A study of Mus musculus with 8 samples.

Results

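Collagen chain genes were taken as every row of the deposited table whose gene name is Col, a type number, the letter a and a chain number, which gave 44 of 55679 genes. By the class of protein they encode, 11 were fibrillar, 9 formed networks (6 of basement membrane and 3 of the hexagonal type), 9 were FACITs (fibril-associated collagens with interrupted triple helices) and 15 belonged to other types. The chains were compared between left ventricles of male wild-type C57BL/6J mice infused for 7 days through an osmotic pump under the skin, either with saline (control, n = 4 libraries) or with angiotensin II (ANG II, n = 4) at 1500 ng/kg/min. The study's methods name more replicates per group than the libraries analysed here. ANG II is a peptide hormone that constricts vessels and raises blood pressure, and the study used this dose as a model of hypertensive left ventricular hypertrophy. Ages of the mice were not given in the sources used here, hearts of both groups were flushed with saline before the ventricle was removed, and the labels do not say whether a library came from a single mouse, so the p-values measure only the spread between these libraries. Expression was measured by RNA-seq of mRNA enriched on oligo(dT) beads, and values are FPKM, the fragments of a gene scaled by transcript length and by the fragments of the library.

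Collagens are extracellular proteins whose chains wind around each other into a triple helix. Fibrillar collagens, foremost types I and III in the heart, assemble into the cable-like fibrils of the interstitium, and type V helps to start them. Network collagens form sheets, type IV in the basement membranes around cardiomyocytes and capillaries and type VIII around vessels. FACITs sit on the surface of fibrils, and beaded filament, multiplexin and transmembrane collagens link cells to the surrounding matrix. In the adult heart, fibroblasts are the main makers of fibrillar collagen.

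Of the 44 chains, 38 had a mean of at least 0.1 FPKM and were tested with limma, together with all 19364 genes that reached this level. Calls required an adjusted p-value (Benjamini-Hochberg over all genes tested) under 0.05 together with a log2 fold change, on the log2(FPKM + 1) scale, beyond 0.5 in either direction. In ANG II ventricles limma called 24 chains higher and 0 lower, while 14 tested chains were not called. In the lower direction, 1 chain (Col6a6) had an unadjusted p-value under 0.05, against 7.09% of all genes tested. Its adjusted p was 0.0397 with a log2 fold change of -0.33, short of the fold threshold, and it was called lower with a pseudocount of 0.1, after quantile normalization and with voom on recovered fragments. Among all genes tested, 14.0% were called higher and 1.41% lower. The median log2 fold change was 1.05 over the 38 tested chains and 0.15 over all genes tested. Of the 38 chains, 25 had every ANG II library above every control library, against 28.7% of all genes, and 1 had every ANG II library below, against 5.06%. With adjusted p-values alone, 27 of the 38 chains were under 0.05, against 33.3% of all genes tested. When libraries were rescaled by the median of ratios, the median over all genes moved to 0.0025, the calls over all genes became 1671 higher and 804 lower in place of 2708 and 273, and 22 chains were called higher.

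Several chain genes lie beside each other in the mouse genome. Positions here are of GENCODE M21 (GRCm38). Col4a1 (chromosome 8, 11198423 to 11312826, minus strand) and Col4a2 (11312805 to 11449287, plus strand) stand head to head, with starts that overlap by 22 bases. In the same arrangement are Col4a4 and Col4a3 on chromosome 1, with 71 bases between them, and Col4a6 and Col4a5 on chromosome X, with 1308 bases between them. Col3a1 (chromosome 1, 45311538 to 45349706, plus strand) and Col5a2 (45374321 to 45503282, minus strand) are tail to tail, 24614 bases apart. Start regions of Col4a1, Col4a2, Col4a4, Col4a5 and Col4a6 are shown because the type IV pairs share, or nearly share, the DNA between their starts, and that of Col3a1 because it had the highest ANG II level of all chains, a choice made after its values were seen. Col4a3, the partner of Col4a4, is not shown. Each sequence runs 5′ to 3′ on the strand of its gene in build GRCm38.p6 (RefSeq), from 250 bases before the start to 30 bases after it. Capitals mark CCAAT (the CCAAT box), GGGCGG (the GC box), TATAAA (the TATA box) and CAGACA (the CAGA box, a Smad-binding sequence), or their reverse complements.
Col4a1 (chr8:11312797-11313076, minus strand): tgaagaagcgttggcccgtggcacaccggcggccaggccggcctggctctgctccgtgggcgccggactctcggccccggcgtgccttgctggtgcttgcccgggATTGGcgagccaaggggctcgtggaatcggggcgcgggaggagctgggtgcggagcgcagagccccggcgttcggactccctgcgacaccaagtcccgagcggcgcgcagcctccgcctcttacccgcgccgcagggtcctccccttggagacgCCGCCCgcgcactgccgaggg
Col4a2 (chr8:11312555-11312834, plus strand): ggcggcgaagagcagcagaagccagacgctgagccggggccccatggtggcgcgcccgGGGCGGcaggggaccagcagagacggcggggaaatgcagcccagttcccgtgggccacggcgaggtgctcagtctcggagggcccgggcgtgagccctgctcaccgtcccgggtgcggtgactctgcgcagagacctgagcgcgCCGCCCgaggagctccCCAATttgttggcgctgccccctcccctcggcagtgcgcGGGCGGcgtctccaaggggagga
Col4a4 (chr1:82586820-82587099, minus strand): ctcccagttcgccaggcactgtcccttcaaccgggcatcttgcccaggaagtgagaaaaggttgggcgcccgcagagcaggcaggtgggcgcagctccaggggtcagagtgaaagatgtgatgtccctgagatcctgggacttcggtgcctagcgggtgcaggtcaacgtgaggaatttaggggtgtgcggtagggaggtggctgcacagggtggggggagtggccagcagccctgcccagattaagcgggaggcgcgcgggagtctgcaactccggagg
Col4a5 (chrX:141475169-141475448, plus strand): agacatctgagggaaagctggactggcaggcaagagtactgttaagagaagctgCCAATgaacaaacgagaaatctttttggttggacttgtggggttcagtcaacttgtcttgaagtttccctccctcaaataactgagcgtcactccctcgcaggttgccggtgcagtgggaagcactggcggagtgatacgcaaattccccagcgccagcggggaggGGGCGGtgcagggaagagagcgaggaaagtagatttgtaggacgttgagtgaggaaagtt
Col4a6 (chrX:141474047-141474326, minus strand): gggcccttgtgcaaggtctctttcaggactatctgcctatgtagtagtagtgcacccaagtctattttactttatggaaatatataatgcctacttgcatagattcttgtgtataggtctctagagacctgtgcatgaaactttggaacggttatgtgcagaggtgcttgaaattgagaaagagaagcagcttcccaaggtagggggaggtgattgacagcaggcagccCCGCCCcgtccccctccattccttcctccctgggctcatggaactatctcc
Col3a1 (chr1:45311288-45311567, plus strand): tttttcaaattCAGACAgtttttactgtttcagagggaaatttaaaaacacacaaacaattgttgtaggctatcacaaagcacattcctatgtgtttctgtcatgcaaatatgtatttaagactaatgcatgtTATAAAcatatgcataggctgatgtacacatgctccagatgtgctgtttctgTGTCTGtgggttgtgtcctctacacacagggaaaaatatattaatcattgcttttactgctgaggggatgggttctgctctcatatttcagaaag

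The Col4a1 and Col4a2 sequences share 38 bases, read on opposite strands, and the GC box at position 10 after the Col4a1 start is the same DNA as the one at position 8 after the Col4a2 start. Col4a1 also held a CCAAT box at position -145 and Col4a2 one at -32, with further GC boxes in Col4a2 at -192 and -48. The Col4a5 sequence had a CCAAT box at -196 and a GC box at -30, Col4a6 had a GC box at -21, and the Col4a4 sequence held none of the 4 motifs. Bases of Col4a1 and Col4a2 were 74.6% and 73.6% G or C, while those of Col3a1 were 36.1%. The Col3a1 sequence held a TATA box at -117 and CAGA boxes at -239 and -65.

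RefSeq start windows (300 bases each, 250 before and 50 after the start) were found for 35 of the 44 chains, 18 of them among the called chains with 20 windows and 11 among the tested chains that were not called. The GC box, on either strand, was in 14 of the 20 windows of called chains, in 7 of the 11 windows of chains not called and in 35.7% of all 32851 windows. CCAAT was in 7 of 20 and 3 of 11, against 37.4% of all windows. The CAGA box was in 7 of 20 and 2 of 11, against 21.04% of all windows, and the TATA box in 1 of 20 and 2 of 11, against 13.6%. A match is a description of the letters and not a binding site.

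Summed over all 44 chains, collagen accounted for 0.258 ± 0.0353% of fragments in control libraries and for 1.01 ± 0.0913% in those of ANG II (SD, each n = 4). The summed FPKM was 955, 1267, 948 and 1069 in control replicates 1 to 4, and 4877, 4513, 4191 and 4013 in ANG II replicates 1 to 4. Every ANG II library stood above every control library, and the ratio of the group means was 4.15. Fibrillar chains had a summed FPKM 7.72 times as high in ANG II as in control, FACITs 7.20 times, the other types 2.75 times and network chains 2.25 times. The make-up of the sum therefore differed between the groups. Network chains made up 51.5 ± 3.55% of the collagen FPKM in control and 27.6 ± 1.88% in ANG II, while fibrillar chains made up 32.1 ± 3.05% and 60.2 ± 2.51% (SD, each n = 4). FACITs took 1.16 ± 0.209% and 2.01 ± 0.307%, and the other types 15.3 ± 0.623% and 10.1 ± 0.535%. These sums are descriptions with no test. In bulk tissue, more cells that make a collagen and more RNA per cell cannot be told apart.

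**Figure D1:**
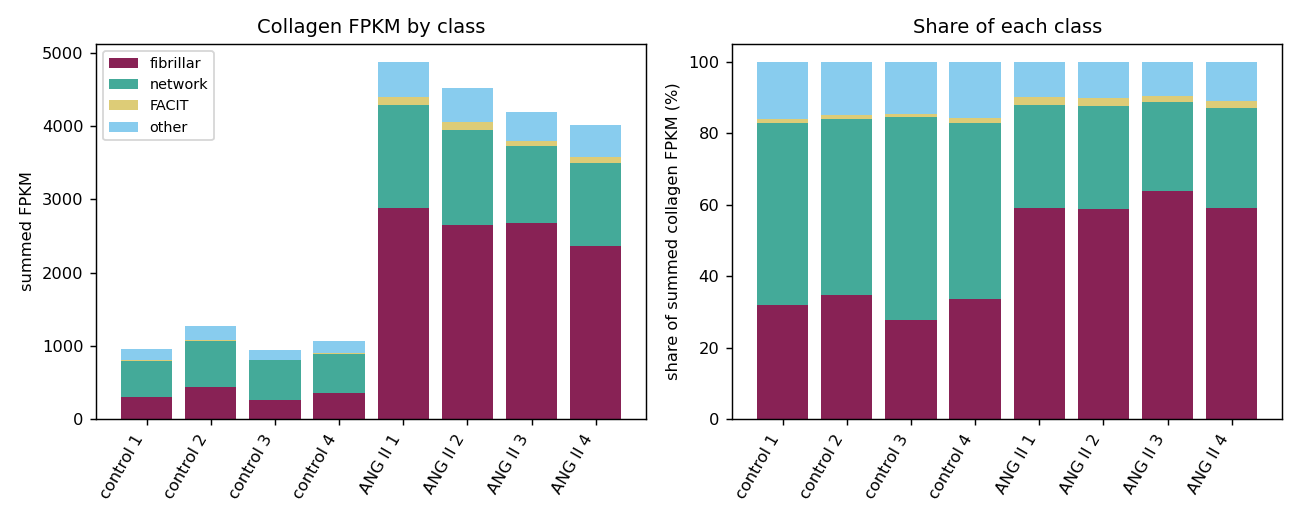
Summed FPKM of the collagen chains (left) and the share of each class in that sum in percent (right) for each of the 8 libraries, as stacked bars from 0. The 4 ANG II libraries reach 4013 to 4877 FPKM against 948 to 1267 in control, and the fibrillar share lies between 58.7% and 64.0% in ANG II against 27.8% to 34.8% in control.

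The deposited FPKM divide by the mean length of all annotated transcripts of a gene, short ones included, so the order of the chains by level was taken after rescaling to the length of the longest coding transcript of each chain (a scale chosen after the data had been seen). On that scale Col4a1 led in control with 110 ± 11.3 FPKM, followed by Col4a2 with 72.7 ± 8.20, Col3a1 with 52.7 ± 12, Col1a2 with 28.7 ± 6.33 and Col6a1 with 26.9 ± 4.01 (SD, n = 4). Ranges over the control libraries overlapped between Col4a2 and Col3a1 and between Col1a2 and Col6a1, and they did not overlap between Col4a1 and Col4a2. ANG II ventricles had another order, with Col3a1 at 387 ± 43.3 FPKM, Col1a2 at 252 ± 24.2, Col4a1 at 238 ± 30.6, Col1a1 at 182 ± 15.7 and Col4a2 at 146 ± 18.3 (SD, n = 4). Here Col1a2 overlapped with Col4a1, and Col1a1 with Col4a2, while Col3a1 stood above the rest in all 4 libraries. On this scale network chains took 47.6% of the control sum and 27.9% of the ANG II sum, and fibrillar chains 29.97% and 55.2%. All values that follow are the deposited FPKM, in the order of replicates 1 to 4, and error terms of log2 fold changes are standard errors from limma.

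**Figure D2:**
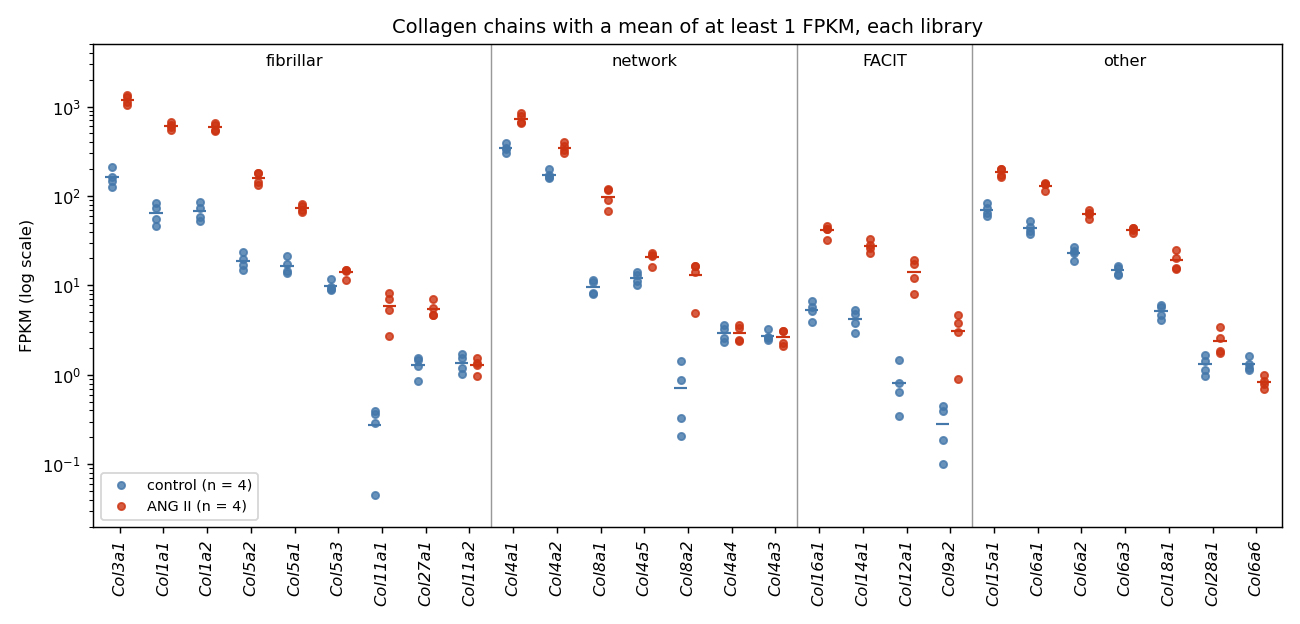
FPKM (log axis) of the 27 collagen chains with a mean of at least 1 FPKM over all libraries, grouped by class, with 1 point per library and a line at the mean of each group (n = 4 control, n = 4 ANG II). Groups do not overlap for the fibrillar chains Col3a1, Col1a1, Col1a2, Col5a2, Col5a1, Col11a1 and Col27a1, and they do for Col5a3, Col11a2, Col4a4 and Col4a3; Col6a6 is the only chain shown whose ANG II points all lie below the control points.

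Fibrillar chains were all tested, and 7 of the 11 were called higher, with a median log2 fold change of 2.10 over the class. The type I and type III chains, which form the body of most interstitial fibrils, were among the genes with the highest log2 fold changes of the whole table on the log2(FPKM + 1) scale, Col1a1 at rank 17, Col1a2 at rank 23 and Col3a1 at rank 31 of 19364. Col3a1, the single chain of type III collagen, was at 148, 213, 126 and 162 FPKM in control and at 1271, 1124, 1328 and 1038 FPKM in ANG II. The lowest ANG II library was 4.88 times the highest control library, and the log2 fold change was 2.89 ± 0.145 (adjusted p = 3.1e-06). Col1a1, the more numerous chain of the type I helix, was at 54.9, 83.8, 46.1 and 74.0 FPKM in control and at 668, 625, 595 and 544 FPKM in ANG II. The groups stood 6.49-fold apart at their nearest libraries, and the log2 fold change of 3.25 ± 0.164 (adjusted p = 3.1e-06) was the largest of the 38 chains on the log2(FPKM + 1) scale. With a pseudocount of 0.1, Col8a2 (4.16), Col11a1 (4.03), Col12a1 (4.03) and Col8a1 (3.31) were above Col1a1 (3.27). Col1a2, its partner chain, was at 58.1, 84.6, 52.1 and 73.9 FPKM in control and at 654, 614, 534 and 549 FPKM in ANG II. Its levels followed those of Col1a1 library by library in control, where replicate 2 was highest and replicate 3 lowest for both, and its log2 fold change was 3.13 ± 0.140 (adjusted p = 1.9e-06).

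Type V chains, which copolymerize with type I and limit fibril diameter, had log2 fold changes from 0.46 to 3.01. Col5a2 was at 17.1, 23.9, 14.7 and 20.0 FPKM in control and at 180, 181, 132 and 142 FPKM in ANG II. Without overlap, this was a mean of 8.38 times the control level and a log2 fold change of 3.01 ± 0.151 (adjusted p = 3.1e-06). Col5a1 was at 14.3, 21.1, 13.6 and 17.4 FPKM in control and at 81.4, 77.9, 68.9 and 66.9 FPKM in ANG II. Its groups did not overlap either, but the ratio of means was 4.44 and the log2 fold change 2.10 ± 0.126 (adjusted p = 5.49e-06). Col5a3, a minor type V chain, was at 9.67, 11.7, 9.18 and 8.95 FPKM in control and at 14.6, 11.6, 14.8 and 14.8 FPKM in ANG II. ANG II replicate 2 fell within the control range, and the chain missed the fold change threshold with 0.46 ± 0.105 (adjusted p = 0.00779). Without ANG II replicate 2 the log2 fold change of Col5a3 was 0.54, and without control replicate 2 it was also 0.54, and the chain was then called higher. With median-of-ratios scaling it was 0.25 (adjusted p = 0.087) and after quantile normalization 0.21 (adjusted p = 0.139).

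The remaining fibrillar chains were low in control. Col11a1, a type XI chain known from cartilage and from fibril initiation, was at 0.287, 0.361, 0.0455 and 0.394 FPKM in control and at 7.03, 8.27, 2.69 and 5.35 FPKM in ANG II. With 2 to 16 fragments per control library and 108 to 350 per ANG II library, the groups were 6.83-fold apart at their nearest libraries, and the log2 fold change was 2.35 ± 0.256 (adjusted p = 0.000136). With a pseudocount of 0.1 it was 4.03, and 4.63 with voom on recovered fragments. Col27a1, a chain of thin fibrils in cartilage, was at 1.56, 1.47, 1.27 and 0.859 FPKM in control and at 4.65, 5.62, 4.65 and 7.03 FPKM in ANG II. It was called higher without overlap, with a log2 fold change of 1.5 ± 0.150. Col11a2, the partner of Col11a1 in type XI, was at 1.56, 1.19, 1.02 and 1.72 FPKM in control and at 1.56, 0.984, 1.36 and 1.30 FPKM in ANG II. Its groups overlapped throughout and its log2 fold change was -0.04 ± 0.132, which turned positive when control replicate 1, control replicate 4 or ANG II replicate 2 was left out. Col2a1, the main cartilage collagen, had a maximum of 0.361 FPKM among control and 0.546 FPKM among ANG II libraries and was not called, nor was Col24a1, at most 0.194 and 0.330 FPKM.

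**Figure D3:**
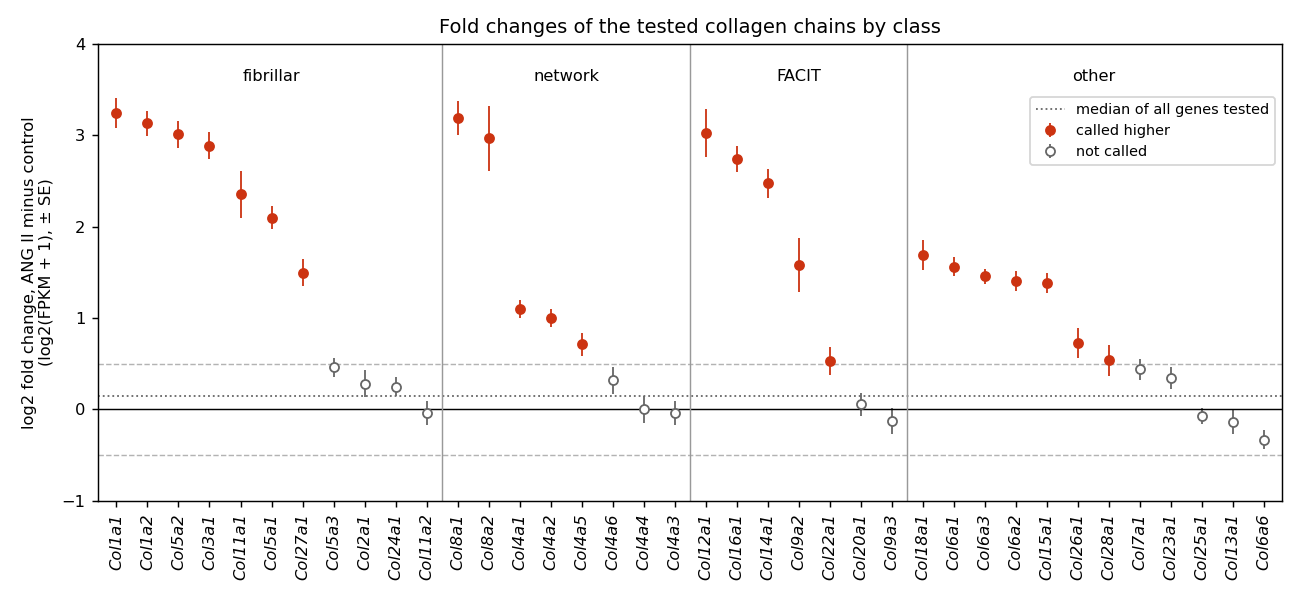
Log2 fold change on the log2(FPKM + 1) scale, ANG II minus control, with the standard error from limma, for the 38 tested collagen chains by class. Filled points are the 24 chains called higher, open points the 14 not called, dashed lines the threshold of 0.5 in either direction and the dotted line the median of all genes tested (0.15).

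Markers of fibroblasts were read beside these values. Of 6 fibroblast markers, 5 were called higher in ANG II (Pdgfra, Tcf21, Dpt, Dcn and Lum, with log2 fold changes from 0.67 to 1.76), and Gsn was at -0.50 and not called. Their summed level was 984 to 1291 FPKM in control and 1046 to 1430 FPKM in ANG II, and overlapped between groups, with Gsn the most abundant of the list. Lum, a proteoglycan on collagen fibrils, was at 27.9, 35.8, 21.3 and 30.8 FPKM in control and at 102, 92.9, 99.5 and 101 FPKM in ANG II. The log2 fold changes of Col1a1, Col1a2 and Col3a1 were therefore above that of each of these markers, and no marker of the list was at 0. All 6 macrophage markers were called higher, with sums of 158 to 197 FPKM in control and 393 to 534 FPKM in ANG II. The part that fibroblast or macrophage number had in the collagen values was not tested.

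Network chains had log2 fold changes from -0.03 to 3.19. Of the 8 tested, 5 were called higher, with a median log2 fold change of 0.86 over the class. The hexagonal chains of type VIII, a short-chain collagen of vessel walls, had the largest changes. Col8a1 was at 8.26, 11.5, 7.92 and 11.0 FPKM in control and at 119, 115, 67.4 and 89.7 FPKM in ANG II. Even the lowest ANG II library, replicate 3, was 5.83 times the highest control library, and the log2 fold change was 3.19 ± 0.184 (adjusted p = 4.7e-06), rank 18 of all genes tested. Col8a2 was at 0.325, 1.44, 0.207 and 0.867 FPKM in control and at 14.2, 16.4, 4.92 and 16.4 FPKM in ANG II. ANG II replicate 3 again stood below the other ANG II libraries, still 3.43 times the highest control library, and the log2 fold change was 2.97 ± 0.356 (adjusted p = 0.000229). Col10a1, a hexagonal chain of hypertrophic cartilage and not of type VIII, was between 0 and 0.127 FPKM in all libraries and was not tested.

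Type IV chains of the common basement membrane were higher in ANG II by about 2.15 and 2.01 times their control means. Col4a1 was at 303, 387, 343 and 331 FPKM in control and at 846, 778, 647 and 664 FPKM in ANG II. Every ANG II library exceeded every control library, by 1.67 times at the nearest pair, and the log2 fold change was 1.10 ± 0.101 (adjusted p = 5.35e-05). Col4a2, its head-to-head neighbour and partner in the trimer, was at 158, 201, 170 and 163 FPKM in control and at 401, 362, 303 and 323 FPKM in ANG II. It had the same order of libraries as Col4a1 within ANG II, no overlap between groups, and a log2 fold change of 1.00 ± 0.1005 (adjusted p = 8.83e-05). Col4a5, on the X chromosome, was at 11.2, 14.2, 10.2 and 13.0 FPKM in control and at 21.5, 22.9, 16.1 and 21.9 FPKM in ANG II. Its groups stood 1.14-fold apart at their nearest libraries, and its log2 fold change of 0.72 ± 0.126 (adjusted p = 0.00197) was 0.48, under the threshold, after quantile normalization.

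The head-to-head pair on chromosome 1 was not called. Col4a3 was at 2.45, 3.23, 2.55 and 2.63 FPKM in control and at 3.13, 2.09, 2.25 and 3.12 FPKM in ANG II, with a log2 fold change of -0.03 ± 0.131. Col4a4 was at 2.62, 3.61, 2.30 and 3.28 FPKM in control and at 3.62, 2.47, 2.42 and 3.34 FPKM in ANG II, with a log2 fold change of 0.003 ± 0.148. Both had overlapping groups, and the sign of each changed when single libraries were left out. Col4a4 was also negative under each of the other scalings of the libraries. Col4a6, the X-linked neighbour of Col4a5, was at 0.314, 0.388, 0.188 and 0.871 FPKM in control and at 1.01, 0.764, 0.619 and 0.710 FPKM in ANG II and was not called. Up to 5.65% of the exon bases of Col4a3 overlap a gene on the other strand, and whether the counting used strand was not given in the sources used here.

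Of 6 endothelial markers, 1 was called higher (Pecam1), and their sum was 367 to 422 FPKM in control and 415 to 496 FPKM in ANG II. Of 7 markers of smooth muscle and pericytes, 2 were called higher (Pdgfrb and Cspg4), with sums of 467 to 540 and 520 to 590 FPKM, and Tagln was near 0 in all libraries. The largest log2 fold change in these lists was 0.71 (Cspg4), against 1.10 for Col4a1. The part of these cell types in the network collagen values was not tested.

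FACITs had 5 of 7 tested chains called higher, with a median log2 fold change of 1.58. Col12a1, which bridges type I fibrils and is known from tendon and from tissue under load, was at 0.646, 0.803, 0.348 and 1.48 FPKM in control and at 17.6, 19.0, 7.93 and 12.2 FPKM in ANG II. Its groups were 5.36-fold apart at their nearest libraries, and its log2 fold change was 3.03 ± 0.265 (adjusted p = 4.27e-05), rank 24 of all genes tested. Col14a1, a FACIT of dense connective tissue, was at 3.83, 5.38, 2.93 and 4.75 FPKM in control and at 28.4, 33, 23.3 and 26.3 FPKM in ANG II. No libraries overlapped and the log2 fold change was 2.47 ± 0.155 (adjusted p = 6.75e-06). Col16a1, found in small fibrils and at integrin contacts, was at 5.19, 5.68, 3.91 and 6.64 FPKM in control and at 46.6, 43.0, 32.3 and 43.3 FPKM in ANG II. Its lowest ANG II library, replicate 3, was 4.87 times the highest control library, and the log2 fold change was 2.74 ± 0.147 (adjusted p = 3.96e-06).

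Col9a2, a type IX chain that decorates cartilage fibrils, was at 0.0996, 0.444, 0.391 and 0.188 FPKM in control and at 2.99, 4.65, 0.905 and 3.83 FPKM in ANG II. It rested on 2 to 9 fragments per control library and 19 to 103 per ANG II library, and its log2 fold change was 1.58 ± 0.296 (adjusted p = 0.00277), against 2.97 with a pseudocount of 0.1 and 3.32 with voom. ANG II replicate 3 was the lowest by a wide margin, but still 2.04 times the highest control library. Col22a1, a chain of tissue junctions, was at 0.315, 0.389, 0.192 and 0.282 FPKM in control and at 1.36, 0.970, 0.376 and 0.911 FPKM in ANG II. The groups overlapped through ANG II replicate 3, the log2 fold change of 0.53 ± 0.156 (adjusted p = 0.0247) stood just past the threshold, and the call was lost in 8 of 16 alternatives, as when control replicate 3 or ANG II replicate 1 was left out (log2 fold changes of 0.49 and 0.42). With a pseudocount of 0.1 its log2 fold change was 1.26 and with voom 1.52. Of the other type IX chains, Col9a1 was at most 0.246 FPKM and not tested, and Col9a3 had control values up to 0.789 FPKM and ANG II values up to 0.558 FPKM and was not called. Col20a1, at 0.565 to 1.07 FPKM in all libraries, was not called, and Col19a1 was at most 0.0432 FPKM and not tested.

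Markers of cartilage and valve were set beside the cartilage-type chains. Of 6 tested, 3 were called higher, Sox9 (1.08 ± 0.227), Acan (0.51) and Comp (2.67 ± 0.415), while Chad, Cnmd and Hapln1 were not. Comp, a protein that binds fibrillar collagen in cartilage and tendon, was at 13.7, 14.3, 4.64 and 20.8 FPKM in control and at 101, 107, 41.5 and 95.6 FPKM in ANG II. The summed level of the list was 7.02 to 28.9 FPKM in control and 49.2 to 115 FPKM in ANG II, of which Comp held most. Matn1, a cartilage marker, was at 0 in every control library and was not tested. Whether valve or other dense connective tissue in the samples had a part in these values was not tested.

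Among the 15 chains of other types, 12 were tested and 7 called higher, with a median log2 fold change of 0.63. Of the type VI chains, which build beaded filaments near cell surfaces, Col6a1, Col6a2 and Col6a3 were called higher and Col6a6 was not called. Col6a1 was at 40.1, 52.5, 37.8 and 45.0 FPKM in control and at 140, 135, 113 and 135 FPKM in ANG II, a log2 fold change of 1.56 ± 0.104. Col6a2 was at 23.2, 26.7, 18.6 and 24.5 FPKM in control and at 70.6, 64.2, 54.8 and 63.4 FPKM in ANG II, a log2 fold change of 1.41 ± 0.109. Col6a3, the longest of these chains, was at 13.4, 16.5, 13.0 and 15.8 FPKM in control and at 43.4, 41.7, 38.6 and 44 FPKM in ANG II, a log2 fold change of 1.46 ± 0.0836. In each of them the lowest ANG II library was at least 2.05 times the highest control library, and adjusted p-values ran from 4.7e-06 to 2.17e-05.

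The other type VI genes were low. Col6a6 was at 1.62, 1.32, 1.12 and 1.2 FPKM in control and at 0.798, 0.702, 0.990 and 0.862 FPKM in ANG II. All ANG II libraries lay below all control libraries, the only chain with this order, and the log2 fold change of -0.33 ± 0.108 (adjusted p = 0.0397) did not reach the threshold. With a pseudocount of 0.1 it was -0.59, after quantile normalization -0.55 and with voom on recovered fragments -0.64, and under these settings the chain was called lower. Its adjusted p was 0.078 without a filter on low values, 0.0904 with the replicate number as a block and between 0.0412 and 0.0985 with single libraries left out, above 0.05 in all of these except without control replicate 3 or ANG II replicate 3. Its neighbours on chromosome 9, Col6a5 and Col6a4, were at most 0.131 and 0.0466 FPKM and were not tested. Col6a6 and Col6a5 share sequence, with 3.54% of the 50-base words of Col6a6 also found in other genes, the highest share of any chain.

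The multiplexins, basement membrane collagens whose ends can be cut off as soluble fragments, were both called higher. Col15a1 was at 64.3, 82.5, 60.2 and 72.5 FPKM in control and at 201, 199, 163 and 171 FPKM in ANG II. Its nearest libraries were 1.97-fold apart and its log2 fold change was 1.38 ± 0.105 (adjusted p = 1.91e-05). Col18a1, the source of endostatin, was at 4.62, 6.10, 4.07 and 5.73 FPKM in control and at 20.4, 15.5, 24.8 and 15.3 FPKM in ANG II. Here ANG II replicate 3 was the highest ANG II library, unlike in most called chains, and the log2 fold change was 1.69 ± 0.164 (adjusted p = 7.43e-05). Col28a1, a chain known from peripheral nerve, was at 1.69, 1.44, 1.15 and 0.975 FPKM in control and at 3.40, 1.74, 2.56 and 1.87 FPKM in ANG II. Its groups only just separated, its log2 fold change was 0.54 ± 0.170 (adjusted p = 0.0347), and it lost its call in 9 of 17 alternatives, with 0.40 when ANG II replicate 1 was left out and 0.46 without control replicate 4. With voom its log2 fold change was 0.83. Of 5 Schwann cell markers, 1 (Mbp) was called higher, with sums of 3.47 to 7.62 FPKM in control and 6.28 to 7.98 FPKM in ANG II, and their part in the Col28a1 value was not tested.

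Chains with a mean under 1 FPKM numbered 17, of which 11 were tested, 2 were called and 6 were below the test's minimum. None of the 44 chains was at 0 in every library. Col26a1 was at 0.159, 0.683, 0.232 and 0.1003 FPKM in control and at 1.57, 1.30, 0.761 and 0.913 FPKM in ANG II. With 2 to 13 fragments per control library and 15 to 31 per ANG II library, its log2 fold change was 0.73 ± 0.167 (adjusted p = 0.00797), against 1.81 with a pseudocount of 0.1 and 2.14 with voom. Col7a1, the anchoring fibril collagen, had control values from 0.231 to 0.449 FPKM and ANG II values from 0.536 to 0.996 FPKM, did not overlap, and missed the fold change threshold (0.44 ± 0.116, adjusted p = 0.0158). Transmembrane chains had no calls among the 3 tested. Col23a1 was at 0.421 to 0.940 FPKM in control and 0.985 to 1.32 FPKM in ANG II (adjusted p = 0.0531), Col13a1 had a log2 fold change of -0.13 ± 0.135 and Col25a1 of -0.07 ± 0.0848, and Col17a1 was at most 0.108 FPKM and not tested. The 9 tested and uncalled chains under 1 FPKM had at most 62 fragments in any library. Chains called higher numbered 25 with a pseudocount of 0.1 and 28 with voom, against 24. No uncalled chain with a mean of at least 1 FPKM was called higher in these settings. Some of the uncalled chains under 1 FPKM therefore gained a call there, and their names are not given here.

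Ratios of chains that share a trimer, a fibril or a place in the genome were compared within each library, which removes the scaling of the library. Of 16 listed pairs, 13 had both chains at a mean of at least 1 FPKM without a value of 0. An exact two-sided permutation test over the 70 allocations of the libraries cannot give less than p = 0.0286, and 5 pairs, those without overlap between groups, reached it. After adjustment over the 13 pairs this became p = 0.0743 in the exact permutation test, so 0 of the 13 passed at 0.05. The changes below are therefore given as values. The ratios are of deposited FPKM. Rescaling to the longest coding transcript multiplies the ratio of a pair by 1 factor in every library, which changes the size of the ratio and not its shift between groups, so the ratios do not say which chain of a pair had more transcripts.

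The ratio of Col1a1 to Col5a1, chains of types I and V, did not overlap between groups. Col1a1 was 3.83, 3.98, 3.38 and 4.24 times Col5a1 in control and 8.20, 8.02, 8.64 and 8.12 times in ANG II, a shift of 1.10 on the log2 scale. Per longest coding transcript the mean ratio was 2.06 in control and 4.40 in ANG II. Within type V, the ratio of Col5a1 to Col5a2 was 0.839, 0.881, 0.928 and 0.872 in control and 0.452, 0.430, 0.523 and 0.473 in ANG II, a shift of -0.91. Per longest coding transcript this mean ratio was 1.10 in control, above 1 rather than below it, and 0.588 in ANG II. In both pairs the libraries of a group stood close together and the groups were well apart. The ratio of Col11a1 to Col11a2 went from 0.190 ± 0.109 to 4.75 ± 2.68, a shift of 4.76 on the log2 scale that was 2.39 once 1 FPKM was added to each value, and that of Col12a1 to Col14a1 from 0.187 ± 0.0854 to 0.50 ± 0.125 (SD, each n = 4). The Col12a1 to Col14a1 difference overlapped between groups once 1 FPKM was added to each value.

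The remaining pairs had small shifts or overlapping groups. Col1a1 to Col1a2, the type I pair, had a ratio of 0.956 ± 0.0524 in control and 1.04 ± 0.0546 in ANG II (SD, each n = 4, exact permutation p = 0.0857). The head-to-head pair Col4a1 and Col4a2 kept a ratio of 1.93, 1.93, 2.02 and 2.03 in control and 2.11, 2.15, 2.14 and 2.05 in ANG II. Those groups did not overlap, but the shift was 0.10 on the log2 scale. Col4a3 to Col4a4 was 0.935 ± 0.128 in control and 0.894 ± 0.0453 in ANG II, with overlap, and Col6a1 to Col6a3 was 2.98 ± 0.148 and 3.11 ± 0.144, also with overlap (SD, each n = 4). The tail-to-tail neighbours Col3a1 and Col5a2 had a ratio of 8.56 ± 0.336 in control and 7.67 ± 1.68 in ANG II, with ANG II replicate 3 at 10.1 above all control libraries. Col1a1 to Col3a1 went from 0.397 ± 0.0415 to 0.513 ± 0.0459, Col6a1 to Col6a2 from 1.89 ± 0.136 to 2.07 ± 0.0640, and Col15a1 to Col18a1 from 13.7 ± 0.883 to 10.1 ± 2.67, each with an exact permutation p of 0.0571 and overlapping groups (SD, each n = 4). Col8a1 to Col8a2 ranged from 8.05 to 38.4 in control, where Col8a2 had 8 to 49 fragments, and from 5.46 to 13.7 in ANG II. The direction of that pair reversed when 1 FPKM was added to each value.

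**Figure D4:**
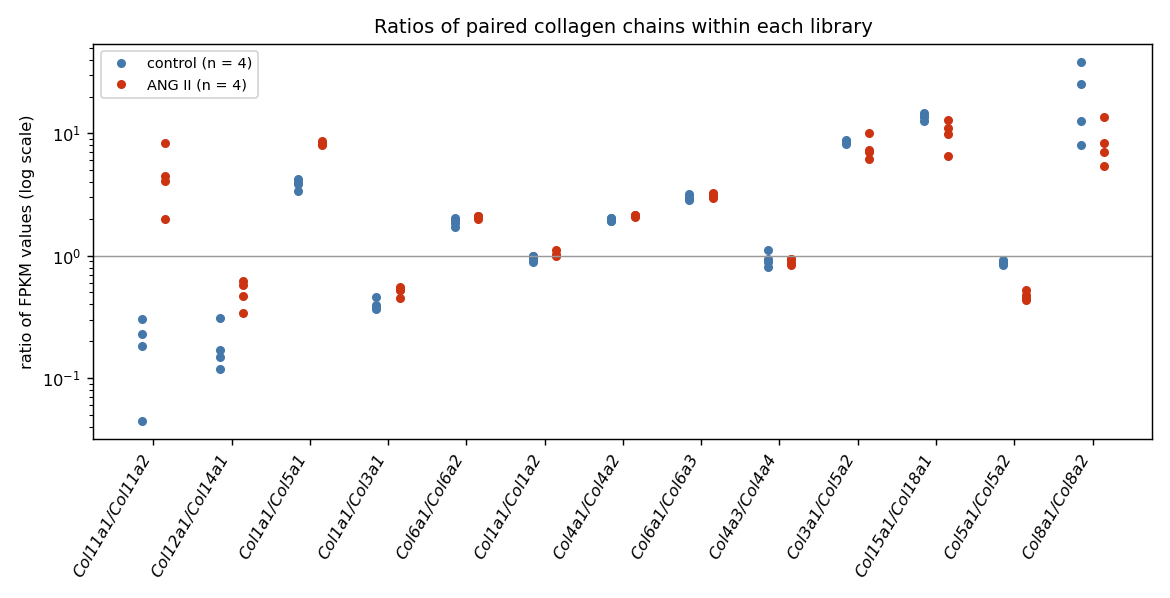
Ratio of the FPKM values of 13 pairs of collagen chains within each library (log axis), with 1 point per library for control and ANG II (n = 4 each), ordered by the change of the mean log2 ratio. Col1a1/Col5a1 stands at 3.38 to 4.24 in control and 8.02 to 8.64 in ANG II, Col5a1/Col5a2 at 0.839 to 0.928 and 0.430 to 0.523, while Col1a1/Col1a2, Col6a1/Col6a3 and Col4a3/Col4a4 overlap between groups.

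The same libraries tended to be at the ends of each group. ANG II replicate 3 was the lowest ANG II library in 19 of the 24 called chains, against 28.5% of the 2708 genes called higher, and control replicate 2 was the highest control library in 19 of 24, against 31.3%. Exceptions included Col3a1 and Col18a1, in which ANG II replicate 3 was the highest ANG II library. Control replicate 3 was the lowest control library in all called chains but Col4a1, Col4a2, Col9a2, Col26a1, Col27a1 and Col28a1. The share of all genes with that order was not counted. The summed level of 4 atrial cardiomyocyte markers was 48.8, 47.4, 1.15 and 20.4 FPKM in control and 126, 66.3, 230 and 52.5 FPKM in ANG II, highest in ANG II replicate 3, with 1 of 3 tested (Sln) called higher and Bmp10 at 0 in all control libraries. Erythroid markers were called higher in 3 of 3, with sums of 90.4 to 452 FPKM in control and 540 to 1905 FPKM in ANG II. Their part in the collagen values was not tested. When ANG II replicate 3 was left out, 24 chains were called higher, and when control replicate 2 was left out, also 24.

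Genes that make, cut, cross-link and degrade collagen were counted from lists of the pathway. Of 20 genes for folding and modification in the endoplasmic reticulum, 12 were called higher and 0 lower, against 14.0% and 1.41% of all genes tested, with a median log2 fold change of 0.68. Among them P4ha3, a prolyl hydroxylase subunit, went from 0.0900 ± 0.0945 to 3.59 ± 0.699 FPKM (log2 fold change 2.07 ± 0.134), and the prolyl 3-hydroxylases P3h3 and P3h2 had log2 fold changes of 1.34 ± 0.105 and 1.15 ± 0.161. P4ha1 and P4ha2, subunits of the same enzyme family, had log2 fold changes of 0.08 and 0.20 and were not called. The collagen chaperone Serpinh1 was at 0.40 and was not called.

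Propeptide cleavage and cross-linking had 8 of 13 genes called higher and 0 lower, with a median log2 fold change of 1.15. Lox, the lysyl oxidase that starts the cross-links between collagen molecules, was at 1.31, 2.13, 1.56 and 2.38 FPKM in control and at 51.7, 52.7, 34.1 and 37.8 FPKM in ANG II. Its log2 fold change of 3.98 ± 0.168 (adjusted p = 1.76e-06) was above that of every collagen chain on the log2(FPKM + 1) scale. The related Loxl3 went from 4.01 ± 0.660 to 33.3 ± 8.04 FPKM (2.75 ± 0.169 on the log2 scale), and Adamts2, which removes the amino-terminal propeptide of fibrillar collagens, from 9.95 ± 2.09 to 44.3 ± 6.0 FPKM (2.06 ± 0.138). Bmp1, the carboxy-terminal propeptide protease, and its enhancer Pcolce had log2 fold changes of 1.15 and 1.28.

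Of 17 receptor and turnover genes, 16 were tested, with 9 called higher, 0 lower and a median log2 fold change of 0.58. Ctsk, a lysosomal collagen-degrading protease, went from 2.62 ± 0.142 to 16.8 ± 2.61 FPKM (2.29 ± 0.113 on the log2 scale). The membrane protease Mmp14 went from 15.3 ± 1.41 to 70.6 ± 5.88 FPKM (2.14 ± 0.0798), and Mmp2, which it activates, from 53.0 ± 7.52 to 204 ± 38.1 FPKM (1.91 ± 0.144). These are genes of collagen degradation. The collagenases Mmp8 and Mmp13 had log2 fold changes of 0.27 and 0.30 and were not called, nor were the receptors Ddr1 (0.49) and Ddr2 (0.42).

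Of 10 regulators of collagen genes, 6 were called higher and 0 lower, with a median log2 fold change of 0.63. Meox1, a homeobox factor of activated fibroblasts, was at 10.2, 7.96, 7.10 and 8.57 FPKM in control and at 38.8, 39.5, 26.4 and 35.3 FPKM in ANG II, a log2 fold change of 1.92 ± 0.137. Runx2, a skeletal factor, was at 1.21 ± 0.119 on the log2 scale, and Sox9, which drives cartilage genes, at 1.08 ± 0.227. Sp1 and Smad3, which bind many collagen promoters, had log2 fold changes of 0.31 and 0.18 and were not called. In these 4 lists, 0 genes had an unadjusted limma p-value under 0.05 in the lower direction, against 7.09% of all genes tested. Errors given for the pathway genes are SD over n = 4 for FPKM and SE for log2 fold changes.

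The libraries held 14456223 to 16565524 fragments, as recovered from the steps of the FPKM values. The extraction text of the labels names CRC cells, while the tissue is labelled as left ventricle, and ventricular cardiomyocyte markers (Myh6, Myl2, Myl3 and others) summed to 41753 to 42678 FPKM in control and 31929 to 34787 FPKM in ANG II, with 1 of 7 (Myh6) called lower. Markers of epicardium and mesothelium (0 of 5 called), adipocytes (0 of 3) and skeletal muscle (1 of 3 tested, Tnnt3) were low, with sums of at most 9.01, 3.17 and 8.09 FPKM, and Myh4 was at 0 in every library.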

How the data were processed

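For 8 libraries, the authors deposited FPKM values of 55679 genes, each library in a column of its own. The submitters' processing notes name Bowtie2, HISAT and RSEM without versions. The genome build, annotation and use of strand were not given in the sources used here. Low FPKM values multiplied by the mean transcript length of GENCODE M21 were whole multiples of 1 step per library (98.1% to 98.5% of values under 60 fragments, within 0.05), which gave the fragments per library (14456223 to 16565524).

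limma 3.58.1 in R 4.3.3 (lmFit, eBayes with variance trend) was fitted to log2(FPKM + 1) of all 19364 genes that averaged at least 0.1 FPKM, with no covariate, using two-sided p-values with Benjamini-Hochberg adjustment. limma and both thresholds were named by the study, while base 2 of the logarithm, the pseudocount and the filter were choices of this work. Fold changes understate those of low genes. Chain ratios were compared by exact permutation.

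Chains with a mean of at least 1 FPKM are given in every library, others if called (Col4a6, uncalled, is given as the neighbour of Col4a5), and from each pathway list the 3 called members with the largest fold change. Other genes were named after their values were seen. Members, classes, pairs and lists were chosen with earlier results of these data known. Start windows were taken from RefSeq (GRCm38.p6). Python 3.11.15, numpy 2.4.6, pandas 2.3.3 and matplotlib 3.10.9 were used.

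Alternatives changed the pseudocount, filter, scaling, variance trend, replicate block, threshold, test (voom on recovered fragments) and single libraries.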

Additional observations from a re-analysis of the deposited data

Results flagged for a closer look

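Of 94 groups of 4 libraries examined, 1 held a library far from the others, where chance gives about 1 in 20. Col5a3 was at 11.6 FPKM in ANG II replicate 2, against 14.6 to 14.8 FPKM in the other ANG II libraries, and the gap was 0.935 of the range of the group. With that library the log2 fold change of Col5a3 was 0.46 and the chain was not called, and without it the value was 0.54 and the chain was called higher. With all libraries, the value was 0.25 with median-of-ratios scaling and 0.21 after quantile normalization.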

How the results depend on the processing

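With the call thresholds kept, 21 of the 24 called chains kept their call under each alternative that tested them and 3 (Col4a5, Col28a1 and Col22a1) lost it under some, and 0 changed direction. Col26a1 and Col22a1 were not tested with a mean of at least 1 FPKM, and a threshold of 1 on the log2 fold change left out 5 of the 24 (Col4a2, Col26a1, Col4a5, Col28a1 and Col22a1). Chains called higher numbered 25 with a pseudocount of 0.1, 23 without a filter, 22 with a mean of at least 1 FPKM, 22 with median-of-ratios scaling, 21 after quantile normalization, 22 without mitochondrial and top 10 genes, 24 without a variance trend, 28 with voom, 26 by adjusted p alone, 19 with a log2 fold change above 1, and 22 to 24 with single libraries left out. Chains called lower were 1 (Col6a6) by adjusted p alone, with a pseudocount of 0.1, after quantile normalization and with voom, and 0 otherwise. Over all genes, 5496 higher and 951 lower passed by adjusted p alone, 767 and 28 with a log2 fold change above 1, 1671 and 804 with median-of-ratios scaling, and 1413 and 986 after quantile normalization, and 536 were lower without mitochondrial and top 10 genes. The median over all genes, 0.15 as deposited, was 0.0025 with median-of-ratios scaling, -0.04 after quantile normalization and 0.05 without mitochondrial and top 10 genes.

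Among uncalled chains with a mean of at least 1 FPKM, signs changed as follows. Fold changes of uncalled chains under 1 FPKM were not followed over the alternatives. Col4a4 was -0.17 with median-of-ratios scaling, -0.31 after quantile normalization and -0.11 without mitochondrial and top 10 genes, and from -0.079 to 0.0816 with single libraries left out (4 of them negative, -0.0356, -0.079, -0.0752 and -0.0447). With single libraries left out, Col4a3 ran from -0.098 to 0.0413 (0.0294, 0.0413 and 0.017 where positive) and Col11a2 was 0.0018, 0.0304 and 0.0312 where positive. The log2 ratio of Col8a1 to Col8a2 reversed to 0.22 with 1 FPKM added. With median-of-ratios scaling, the fold of the summed FPKM was 3.54 over all chains, 1.91 for network chains and 2.35 for the other types. The causes were not tested.

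Over all genes tested, deviations of same-numbered libraries correlated between -0.032 and 0.062. These correlations cannot tell whether libraries were paired for the collagen chains, and the sample titles give only a replicate number. Standard errors under a replicate block were smaller for most called chains, as in Col5a2 (0.151 to 0.0956) and Col16a1 (0.147 to 0.0831). For Col3a1, Col18a1 and Col27a1 they were larger (0.145 to 0.155, 0.164 to 0.194 and 0.150 to 0.172). With the replicate number as a block, 24 chains were called higher and 0 lower, and 10 of the 13 pairs had same-numbered differences of 1 sign, where a sign-flip test cannot give less than an exact p of 0.125.

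Log2 fold changes of low chains depend on the pseudocount, with Col11a1, Col9a2, Col26a1 and Col22a1 moving from 2.35, 1.58, 0.73 and 0.53 to 4.03, 2.97, 1.81 and 1.26 with a pseudocount of 0.1.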
